A study of Mus musculus with 115 samples.

Results

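Chemokines and GTPases that interferons induce were followed as 1 set of transcripts in the liver and the inguinal adipose tissue of mice in which gonad type and sex chromosomes are inherited apart (FCG mice). The set held the genes listed as Cxcl9, Cxcl10, Gbp1, Gbp2, Gbp3, Gbp4, Igtp and Irf1, and its members were every probe that the Illumina expression BeadChip annotates with one of these 8 symbols. The array held 14 such probes, for 7 of the symbols, among 25697 probes for 18120 symbols, and no probe was listed as Gbp3. Current gene tables rename part of the family. The gene listed as Gbp1 is now Gbp2b, and both probes listed as Gbp4 are defined by the array itself as Gbp3, so that they are called Gbp2b and Gbp3 here. The gene now named Gbp4 is not in the set. The symbols were proposed because several of these genes were lower in the livers of mice that had developed testes, so that difference is given as a description with no test.

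The mice were of a C57BL/6J background. Their Y chromosome lacked Sry, the testis-determining gene, which some of them carried as a transgene on an autosome. XX and XY- mice had no Sry and formed ovaries (the ovary line), and XXSry and XY-Sry mice carried the transgene and formed testes (the testis line). All mice were gonadectomised at 75 days of age and given a capsule at the same time, which was blank or held testosterone (5 mM) or estradiol (50 µg), and tissue was taken 3 weeks later. The blank groups therefore also lacked gonads, and the line stood for the type of gonad a mouse had before surgery together with the presence of the transgene. Liver had 5 arrays in each of the 12 groups of genotype and capsule. Adipose tissue had 3 arrays of XX with blank capsules, 4 each of XX with testosterone, XXSry with estradiol and XY-Sry with blank capsules, and 5 in each other group.

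Interferon-gamma, which T and NK cells secrete, binds a receptor on its target cells and induces genes through GAS elements in their promoters. Irf1 is one of these genes and encodes a transcription factor that acts on ISRE elements, through which type I interferons act too. Cxcl9 and Cxcl10 encode secreted ligands of the receptor CXCR3 that draw activated T and NK cells. The guanylate-binding proteins (Gbp2b, Gbp2, Gbp3) are cytosolic enzymes that attack the vacuoles of intracellular pathogens, and Igtp is an immunity-related GTPase. In liver, Kupffer cells and endothelium are known responders to this signal, as are macrophages in adipose tissue.

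The members lie on 3 chromosomes of the mouse genome (GRCm38.p6). Cxcl9 (chr5:92321331-92328079) and Cxcl10 (chr5:92346638-92348889) are neighbours. Gbp3 (chr3:142560016-142573213), Gbp2b (chr3:142594816-142619179) and Gbp2 (chr3:142620663-142638008) are adjacent, and Igtp (chr11:58199556-58207592) and Irf1 (chr11:53770014-53778374) are on chromosome 11, apart from each other. The stretches before the starts of 4 members are shown because the results turn on these genes: Cxcl9 for the lines in liver, Gbp2 and Gbp3 for testosterone, and Igtp because it holds both kinds of motif. They come from RefSeq, read 5′ to 3′ on the gene's own strand and end just before its first base. They cover chr5:92328080-92328329 (minus strand) for Cxcl9, chr3:142620413-142620662 (plus) for Gbp2, chr3:142559794-142560015 (plus) for Gbp3 and chr11:58199306-58199555 (plus) for Igtp. Capitals mark matches to the GAS pattern TTCNNNGAA or to the ISRE core (GAAA, any 2 bases, GAAA) on either strand.
Cxcl9: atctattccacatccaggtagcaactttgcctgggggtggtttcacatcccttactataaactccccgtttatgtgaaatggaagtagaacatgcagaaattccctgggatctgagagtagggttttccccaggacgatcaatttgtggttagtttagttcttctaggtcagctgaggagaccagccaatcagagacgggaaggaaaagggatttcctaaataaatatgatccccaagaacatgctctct
Gbp2: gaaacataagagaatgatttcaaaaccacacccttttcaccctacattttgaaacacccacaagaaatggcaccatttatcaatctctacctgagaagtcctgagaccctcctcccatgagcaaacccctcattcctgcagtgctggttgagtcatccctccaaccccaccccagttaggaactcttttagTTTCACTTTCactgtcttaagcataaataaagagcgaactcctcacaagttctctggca
Gbp3: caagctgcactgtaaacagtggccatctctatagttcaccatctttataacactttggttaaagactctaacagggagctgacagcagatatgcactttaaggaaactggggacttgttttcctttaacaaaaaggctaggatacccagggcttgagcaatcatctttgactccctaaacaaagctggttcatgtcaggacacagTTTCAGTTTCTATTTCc
Igtp: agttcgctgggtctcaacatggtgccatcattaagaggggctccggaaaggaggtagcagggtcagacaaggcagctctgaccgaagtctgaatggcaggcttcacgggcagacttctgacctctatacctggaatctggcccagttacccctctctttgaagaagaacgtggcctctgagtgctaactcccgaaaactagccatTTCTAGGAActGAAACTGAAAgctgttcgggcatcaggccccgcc

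Gbp2 had 1 ISRE match, from -59 to -50 counted from the gene's start. Gbp3 had 2 overlapping ISRE matches, from -17 to -8 and from -11 to -2. Igtp had a GAS match from -45 to -37 and an ISRE match from -34 to -25. Of the members not shown, Cxcl10 and Gbp2b each had 1 ISRE match, from -213 to -204 and from -106 to -97, and Irf1 had 1 GAS match from -90 to -82. These letters were not found in the Cxcl9 window. The windows searched held 250 bases, and those of Gbp3 and Gbp2b reached 28 and 31 bases into the annotated gene. Gbp3 and Irf1 each had a further window, which lay wholly inside the gene and held no match. Among 32851 windows of that length in the same table, 2.98% held an ISRE match, 7.02% a GAS match and 0.332% both. A match is a stretch of letters and no measurement of binding.

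Values are log2 signals after background correction and quantile normalisation within a tissue, and differences are on the same log2 scale. A probe is called where limma's adjusted p (Benjamini-Hochberg over all probes tested in that comparison) is under 0.05. In liver 11 of the 14 probes passed the filter on dim probes, with at least 1 for each of the 7 genes, and in adipose tissue all 14 did. The probes not tested in liver were 2 of the 3 for Gbp2 and 1 of the 5 for Irf1. Where 1 probe stands for a gene, it is the brightest one tested. Whether a Gbp probe also reads another member of this similar family was not tested.

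Per-array signals varied moderately, with median raw intensities of 124.4 to 159.2 in liver and 129.9 to 230.4 in adipose tissue and with 31.78% to 41% and 40.25% to 48.99% of probes detected. Hepatocyte markers averaged between 12.09 and 12.87 on every liver array, and adipocyte markers between 11.71 and 13.20 on every adipose array. In liver, XY-Sry testosterone replicate 5 had Xist at 6.63 and the Y-linked Eif2s3y at 4.53, as XX livers did. The array labelled XY- estradiol replicate 5 had Hsd3b5, a gene of male liver, at 12.26, within the range of 11.15 to 12.95 on testosterone arrays, where the other XY- estradiol arrays had at most 7.50. Among the other estradiol livers XXSry replicate 5 was also within that range, at 11.19, and the other XXSry estradiol arrays had 8.47 to 10.25. In adipose tissue the labels of XX estradiol replicate 1 conflict on the agent, and its level of Greb1, an estrogen-induced gene, was 9.22 against 9.13 to 9.30 on the other XX estradiol arrays. Eif2s3y there was 6.41 and 6.51 in XXSry blank replicates 3 and 4 and 5.83 in XX testosterone replicate 2. The other XX and XXSry arrays had 4.505 to 5.24, and the XY- and XY-Sry arrays 8.19 to 9.78. Xist was 6.11 in XY-Sry testosterone replicate 1, above the other XY- and XY-Sry arrays, which had at most 5.67. These arrays were kept as labelled and were left out only singly. Calls that changed without the doubted liver arrays are given beside the result.

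In liver every member was lower on average in the testis line than in the ovary line, and the 2 genes with the widest gap were Cxcl9 and Gbp2b. Cxcl9 ranged from 6.87 to 8.85 with a median of 7.87 in 30 testis-line livers and from 7.46 to 11.003 with a median of 9.31 in 30 ovary-line livers, a difference of -1.33 ± 0.11 (SE). With blank capsules the 5 XX livers had Cxcl9 at 10.06, 9.40, 9.26, 9.36 and 9.60 and the 5 XY- livers at 10.36, 9.02, 9.44, 9.54 and 9.41. The 5 XXSry livers had 8.25, 7.99, 7.56, 7.68 and 7.70, and the 5 XY-Sry livers 7.91, 7.64, 7.78, 7.81 and 8.03. With blank capsules the highest testis-line liver lay below the lowest ovary-line liver, whichever sex chromosomes the mice had. That separation describes the values that proposed the gene and is no support for them.

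The difference in Cxcl9 was -1.71 ± 0.20 with blank capsules, -0.93 ± 0.20 with testosterone and -1.34 ± 0.20 with estradiol. For Gbp2b, a guanylate-binding protein, the probe was detected in 22 of 30 ovary-line livers and in 8 of 30 testis-line livers, and its mean was 6.49 ± 0.96 (SD) against 5.22 ± 0.58. In the 10 testis-line livers with testosterone the Gbp2b probe was not above background on any array, so its level there, 4.52 to 5.10, is only a bound. Cxcl10 differed by -0.70 ± 0.12, Gbp2 by -0.77 ± 0.14 and the Gbp3 probes by -0.55 ± 0.11 and -0.49 ± 0.12. Igtp differed by -0.18 ± 0.11, and the 4 probes of Irf1, the transcription factor of the set, by -0.25 to -0.17.

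Slide is the batch that the labels give. Within the 8 slides the Cxcl9 difference between the lines ranged from -1.64 to -0.84, which describes the values that chose the gene and is no support for them.

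**Figure D1:**
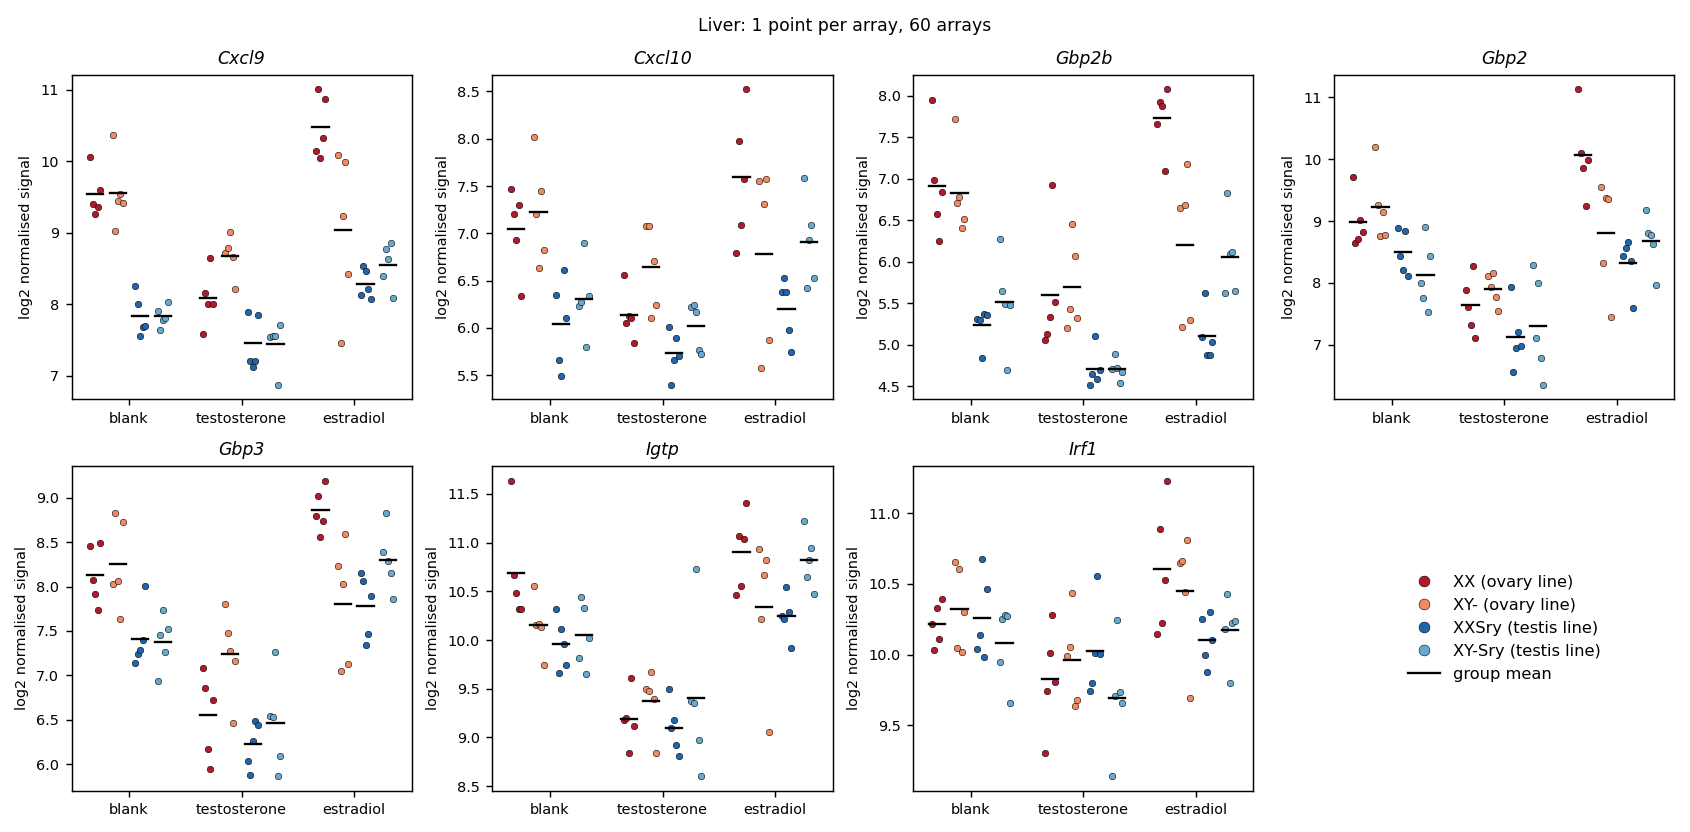
Log2 signal of the brightest tested probe of each of the 7 genes in 60 livers, by capsule (blank, testosterone, estradiol); points are arrays coloured by genotype and bars are group means. The XX and XY- points of Cxcl9 with blank capsules (9.02 to 10.36) all lie above the XXSry and XY-Sry points (7.56 to 8.25), and the XX estradiol group has the highest mean in all 7 panels.

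Macrophage markers were also lower in testis-line livers. All 6 tested were, with a median of -0.61: C1qa, a complement subunit, by -0.61, Adgre1 by -0.72 and Csf1r by -0.60. Their mean level was 7.62 in the ovary line, between 6.23 and 9.36, and 6.97 in the testis line, between 6.22 and 7.82. Of the 11 T and NK cell markers only Prf1, Cd3g and Cd3d passed the filter in liver, and Cd3g was detected on 11 and Cd3d on 5 of 60 arrays. Cd3g differed by -0.74 and Cd3d by -0.46, and Prf1, detected on all 60 arrays, by 0.06. In bulk tissue fewer cells of a type and less RNA per cell cannot be told apart. With the mean macrophage and T and NK cell levels as covariates the median difference of the 11 member probes was -0.080 in place of -0.49.

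All tested members were lower with testosterone in liver. All 11 tested probes fell against blank capsules (limma), where 10.9% of all tested probes fell and 19.1% were called in either direction. The comparison weights the 4 genotypes equally and uses 20 livers in each arm. Its blank livers are also the reference of the estradiol comparison. They include the blank ovary-line livers, whose levels helped to propose the genes, so that choice could add to a fall from them.

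Among the GTPases, Gbp3 ranged from 5.87 to 7.80 with a median of 6.51 on 20 testosterone arrays and from 6.93 to 8.83 with a median of 7.73 on 20 blank arrays, and it fell by 1.18 ± 0.13 (adjusted p = 3.91e-10). Its second probe fell by 1.05 ± 0.15 (adjusted p = 2.02e-07). Gbp2 ranged from 6.36 to 8.29 with a median of 7.58 with testosterone and from 7.54 to 10.20 with a median of 8.77 with blank capsules. The arms of Gbp2 overlapped between 7.54 and 8.29, and the fall was 1.21 ± 0.17 (adjusted p = 2.04e-07).

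Igtp fell by 0.94 ± 0.14 (adjusted p = 3.55e-07), from a median of 10.16 to one of 9.19. One testosterone liver, XY-Sry replicate 3 at 10.73, stood above all blank livers but XX replicate 1 at 11.64, and the other 19 testosterone arrays were at or below 9.67. Gbp2b fell by 0.95 ± 0.16 (adjusted p = 8.14e-06) and was detected in 13 of 20 blank and in 4 of 20 testosterone livers, so that the size of its fall rests on signals near background. Without background correction the falls were smaller, by 0.33 for Gbp2b (adjusted p = 1.5e-04), 0.62 and 0.58 for the Gbp3 probes (adjusted p = 1.11e-08 and 4.58e-06) and 0.23 for Cxcl10 (adjusted p = 0.0213), and each was still called.

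The chemokines and the transcription factor fell too. Cxcl9 ranged from 6.87 to 9.01 with a median of 7.87 with testosterone and from 7.56 to 10.36 with a median of 8.64 with blank capsules, a fall of 0.78 ± 0.14 (adjusted p = 2.99e-05). Cxcl10 fell by 0.52 ± 0.15 (adjusted p = 0.0107). The 4 Irf1 probes fell by 0.34 to 0.49, with adjusted p between 0.00124 and 0.0122. With slide as a block Cxcl10, at -0.43 (adjusted p = 0.0525), and 1 Irf1 probe, at -0.29 (adjusted p = 0.0608), lost their calls, and with median centring another Irf1 probe did (adjusted p = 0.0612). In each of the 3 slides that held both arms every gene was lower with testosterone, with differences from -1.54 to -0.74 for Gbp2, -1.50 to -0.89 for Gbp3 and -1.45 to -0.37 for Cxcl9.

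**Figure D2:**
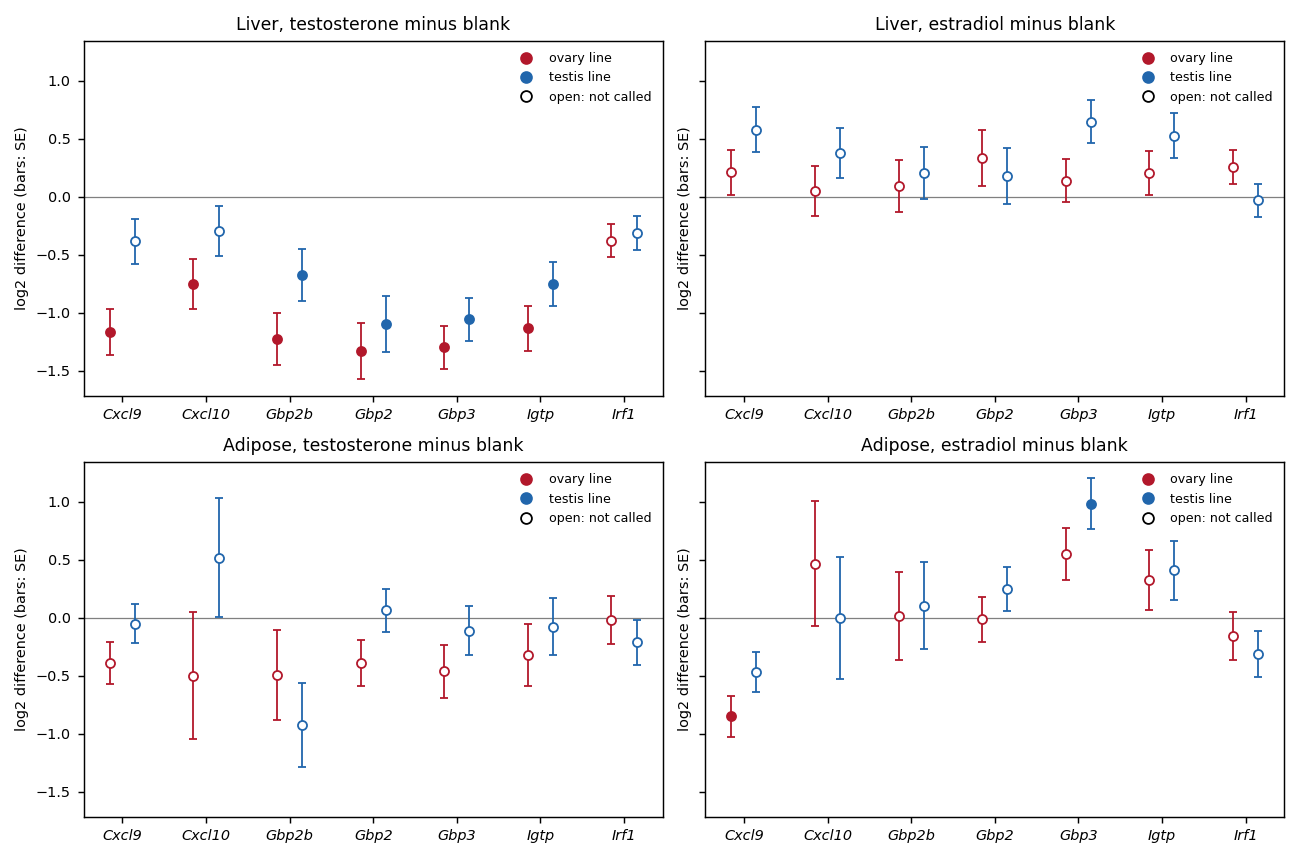
Log2 difference from blank capsules (± SE) for the brightest probe of each of the 7 genes with testosterone or estradiol, in liver and adipose tissue, for the ovary line (red) and the testis line (blue); filled points are called, open points are not. In liver with testosterone all points lie below 0. Filled there are Cxcl9, Cxcl10, Gbp2b, Gbp2, Gbp3 and Igtp in the ovary line and Gbp2b, Gbp2, Gbp3 and Igtp in the testis line. In adipose tissue with estradiol the Gbp3 points lie above 0 and the Cxcl9 points below 0.

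Within the ovary line 9 of 11 probes fell with testosterone, where 7.06% of all tested probes were called. The blank ovary-line livers are on the high side of the line difference that proposed the genes, which favours a fall from them. The count and the p-values below therefore describe these livers and are no independent support. Cxcl9 fell by 1.17 ± 0.20 (adjusted p = 2.39e-05), from 9.02 to 10.36 on 10 blank arrays to 7.59 to 9.01 on 10 testosterone arrays. Gbp2 was at 8.65 to 10.20 against 7.11 to 8.27, and Igtp at 9.74 to 11.64 against 8.84 to 9.67. Gbp2 fell by 1.33 ± 0.24 (adjusted p = 8.43e-05) and Igtp by 1.13 ± 0.19 (adjusted p = 2.48e-05). Cxcl10 fell by 0.75 ± 0.22 (adjusted p = 0.0204). Its adjusted p was 0.0648 without XY- blank replicate 1 and 0.0504 without XY- testosterone replicate 3. Of the 4 Irf1 probes 2 fell, and 1 of these, at -0.59 with an adjusted p of 0.048, lost its call in 33 of the 60 fits that each left out 1 array.

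Within the testis line 5 of 11 probes fell, where 9.14% of all tested probes were called. Gbp3 fell by 1.05 ± 0.19 (adjusted p = 5.39e-05) and 0.81 ± 0.21 (adjusted p = 0.00712), Gbp2 by 1.09 ± 0.24 (adjusted p = 0.00142) and Igtp by 0.75 ± 0.19 (adjusted p = 0.0066). With median centring the second of the Gbp3 probes did not pass (adjusted p = 0.0977). Gbp2b had a mean of 5.38 with blank capsules, where 3 of 10 arrays detected it, and 4.70 with testosterone, where none did (adjusted p = 0.0455). That call was lost in 15 of the 60 fits that left out 1 array and, at an adjusted p of 0.0552, without both doubted arrays. Cxcl9 was at 7.56 to 8.25 with blank capsules and 6.87 to 7.89 with testosterone, a difference of -0.38 ± 0.20 that did not pass (adjusted p = 0.235). The limma test of whether testosterone acted differently in the lines called none of the 11 probes, with 1 at an unadjusted p under 0.05, where 0.124% of all tested probes were called. For Cxcl9 that difference was 0.78 ± 0.28 (adjusted p = 0.624). The blank ovary-line livers, whose levels helped to propose the genes, enter this test too.

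Other genes of the pathway are set beside the 10.9% of all tested probes that fell with testosterone in liver. Of 16 tested other targets of interferon-gamma 5 fell and 1 rose, with a median of -0.12 against 0.003 over all tested probes. Psmb10, an immunoproteasome subunit, fell by 0.55 (adjusted p = 2.49e-07), Cd274, which encodes the checkpoint ligand PD-L1, by 0.81 (adjusted p = 2.23e-06) and Gbp6 by 0.71 (adjusted p = 1.13e-04). Among 7 tested genes of the signalling pathway Il12rb1 rose and none fell (limma), with 4 of the 7 at an unadjusted p under 0.05. The receptor chains Ifngr1 and Ifngr2 differed by -0.24 each (adjusted p = 0.081 and 0.145). Of 22 type I interferon genes 4 fell, with Ifit3 at -0.85 (adjusted p = 1.09e-06), Usp18 at -0.66 and Oas2 at -0.61. The list's median was -0.11, and its share of calls is read no further.

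Of the NF-kB targets 2 of 7 fell, Il15 by 1.19 (adjusted p = 2.28e-09) and Vcam1 by 0.59 (adjusted p = 6.92e-04). Macrophage markers fell in 3 of 6 cases, Clec4f, a Kupffer cell lectin, by 0.64, Csf1r by 0.37 and C1qa by 0.35. Within the ovary line 5 of these 6 markers fell and within the testis line none did, at medians of -0.66 and -0.05. In the testis line 0 of 6 passed the limma test and 1 had an unadjusted p under 0.05, and the test of the difference between the lines called 0 of 6, with 4 at an unadjusted p under 0.05. Of the 3 tested T and NK cell markers Cd3g fell by 0.38 (adjusted p = 0.0101) and Prf1 by 0.27 (adjusted p = 0.0051), and Cd3d differed by -0.07 (adjusted p = 0.674). Of 5 endothelium markers 2 fell, Cdh5, a junction cadherin, by 0.69 (adjusted p = 8.08e-05) and Egfl7 by 0.35 (adjusted p = 0.00113). The mean macrophage level was 7.22 (6.58 to 8.54) with blank capsules and 6.85 (6.22 to 7.44) with testosterone. With the macrophage and T and NK cell levels as covariates 6 of the 11 probes still fell, where 1210 of all 11317 tested probes were called. These were both Gbp3 probes, by 1.06 and 0.84, Gbp2 by 0.79, Igtp by 0.69, Gbp2b by 0.60 and Cxcl9 by 0.46 (adjusted p = 0.0369). Cxcl10, at -0.31, and the Irf1 probes no longer passed (adjusted p = 0.277 and 0.0871 to 0.357). In the same fit within the ovary line only both Gbp3 probes passed, by -1.09 (adjusted p = 0.00507) and -0.95 (adjusted p = 0.0448). There 216 of all tested probes were called, against 799 without the covariates. Within the testis line that fit kept 4 of the 5 calls: Gbp3 by -1.02 and -0.73, Gbp2 by -0.96 and Igtp by -0.64, with adjusted p between 1.25e-04 and 0.0163, and not Gbp2b, at -0.54 (adjusted p = 0.0918). Over all probes it called 989 in that line, against 1034 without the covariates.

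Estradiol raised 1 of the 11 member probes in liver, a Gbp3 probe, by 0.52 ± 0.15 (adjusted p = 0.0196), where 6.82% of all tested probes were called and 3.55% rose. That probe ranged from 7.06 to 9.55 with a median of 8.27 on 20 estradiol arrays and from 6.24 to 8.66 with a median of 7.74 on 20 blank arrays. The other Gbp3 probe was 0.39 ± 0.13 higher (adjusted p = 0.0578), Cxcl9 0.39 ± 0.14 (adjusted p = 0.0751) and Igtp 0.37 ± 0.14 (adjusted p = 0.092). The count moved with single arrays: 4 probes were called without XY- estradiol replicate 5 and 3 without XY- estradiol replicate 2. In 12 other fits that each left out 1 array 2 probes were called. The arrays left out there were, with blank capsules, XX replicates 1 and 5, XY- replicates 1, 2 and 5, XXSry replicate 5 and XY-Sry replicate 3. With estradiol they were XX replicate 3, XXSry replicate 3 and XY-Sry replicate 5, and with testosterone, an arm outside the comparison, XY- replicate 4 and XY-Sry replicate 3.

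With estradiol the XX livers had Cxcl9 at 10.15, 11.003, 10.04, 10.32 and 10.86, the highest group mean of the 12. The XY- livers overlapped them, with 10.09, 7.46, 9.23, 9.98 and 8.42 and the widest spread of any group, with the doubted replicate 5 at 8.42 and replicate 2 lower still. XXSry livers ranged from 8.06 to 8.53 and XY-Sry livers from 8.08 to 8.85, so that these overlapped too. XX with estradiol also had the highest group mean for Cxcl10 at 7.59, Gbp2b at 7.73, Gbp2 at 10.07, Gbp3 at 8.86, Igtp at 10.91 and Irf1 at 10.60. Its macrophage level, at 8.72 (8.36 to 9.36), and its T and NK cell level, at 6.67 (6.48 to 6.97), were the highest group means of the 12 too, and their part in the members' levels was not tested within this group.

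Within the ovary line no member probe was called with estradiol (limma), where 2.47% of all were. There 1 had an unadjusted p under 0.05, and the smallest adjusted p was 0.26. Within the testis line the same Gbp3 probe rose, by 0.81 ± 0.21 (adjusted p = 0.0234, 1.78% of all called). The blank testis-line livers are on the low side of the line difference that proposed the genes, which favours a rise from them. The blank ovary-line livers are on its high side, which works against one. These counts and p-values, and the test between the lines below, therefore describe these livers and are no independent support. Adjusted p of the testis-line call was 0.0604 without XXSry blank replicate 1, 0.0786 without XY-Sry blank replicate 1, 0.0618 without XY-Sry estradiol replicate 2 and 0.054 without XXSry estradiol replicate 4. In 14 other fits without 1 array 2 probes were called there. The difference of the estradiol effect between the lines was called for none of the 11 probes (limma), with 0 at an unadjusted p under 0.05, against 0.0795% of all. Beside the members, 6 of 22 type I interferon genes rose, Oas1g by 0.74, Oasl2 by 0.67 and Irf7 by 0.60, and 5 of 6 macrophage markers did, Cd68 by 0.79, Csf1r by 0.57 and Adgre1 by 0.49. With the immune marker levels as covariates the Gbp3 difference was 0.40 (adjusted p = 0.492).

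The sex chromosome complement was compared in the same way, XX and XXSry against XY- and XY-Sry. None of the 11 probes was called in liver (limma), and 0 had an unadjusted p under 0.05, where 0.186% of all tested probes were called, with differences from -0.19 (Cxcl10) to 0.10 and adjusted p of 0.999 for each. The standard errors of these differences were 0.084 to 0.14. Cxcl9 was at 9.26 to 10.06 in XX and 9.02 to 10.36 in XY- livers with blank capsules, ranges that overlapped.

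Adipose tissue was normalised on its own, and no test set it against liver. None of the 14 probes was called between the lines (limma), with 1 at an unadjusted p under 0.05, where 7.34% of all tested probes were called, and the smallest adjusted p was 0.28, for Gbp2b at -0.43 ± 0.21. None was called between the lines with blank capsules (1.8% of all called), testosterone (3.42%) or estradiol (4.4%) alone, and 0, 1 and 0 had an unadjusted p under 0.05. Cxcl9 ranged from 9.56 to 11.58 with a median of 10.93 on 27 ovary-line arrays and from 10.18 to 12.14 with a median of 10.87 on 28 testis-line arrays, a difference of -0.01 ± 0.10. Gbp2 differed by 0.02 ± 0.11. In the same comparison 7 of 7 mammary epithelium markers were lower in the testis line, with a median of -3.30, among them Krt7 at -2.85 and Krt19 at -3.84. Their part in the members' levels was not tested. With B cell, mammary and muscle marker levels as covariates 1 of all 14636 tested probes was called between the lines, against 1075 without. That fit called none of the 14, but it can hardly separate the line from these markers and decides nothing on the members.

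With testosterone none of the 14 probes was called in adipose tissue, where 4.75% of all were called, nor within the ovary line (0.417%) or the testis line (3.55%), nor for the difference between the lines (0.0137%). At an unadjusted p under 0.05 these limma comparisons held 2, 1, 1 and 0 of the 14. Gbp2b, at -0.70 ± 0.27, came nearest (adjusted p = 0.124) and was detected on 6 of 19 testosterone and 11 of 17 blank arrays. The Gbp3 probes differed by -0.28 ± 0.16 and -0.24 ± 0.15 (adjusted p = 0.334 and 0.389). One array stood far above its group: XY-Sry testosterone replicate 3 had Cxcl10 at 12.00, where the other 4 were at 5.15 to 8.33, Gbp2 at 13.68 against 11.21 to 11.69, Gbp3 at 12.12 against 9.55 to 10.49, and Igtp at 12.48 against 9.37 to 10.53. Its Gbp2b, at 4.78, was not raised.

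With estradiol 4 of the 14 probes were called in adipose tissue, in both directions, where 20.5% of all tested probes were called. Cxcl9 ranged from 9.56 to 11.03 with a median of 10.64 on 19 estradiol arrays and from 10.85 to 11.58 with a median of 11.16 on 17 blank arrays, and fell by 0.66 ± 0.12 (adjusted p = 6.82e-05). Gbp3 ranged from 9.91 to 11.81 with a median of 11.38 with estradiol and from 9.90 to 10.93 with a median of 10.59 with blank capsules, and rose by 0.77 ± 0.16 (adjusted p = 2.24e-04). All estradiol arrays but XY- replicate 3 lay above every blank array, from 10.96 upwards. The second Gbp3 probe rose by 0.76 ± 0.15 (adjusted p = 1.34e-04).

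Of 5 Irf1 probes 1 fell, by 0.46 ± 0.15 (adjusted p = 0.0205), a call lost with slide as a block (-0.43, adjusted p = 0.0959), and the others differed by -0.23 to 0.20 with no call, so the probes of this gene disagreed. Igtp at 0.37 ± 0.18 (adjusted p = 0.153), Gbp2 at 0.12 ± 0.14 (adjusted p = 0.609), Gbp2b at 0.06 ± 0.27 (adjusted p = 0.912) and Cxcl10 at 0.24 ± 0.38 (adjusted p = 0.732) did not pass. Within the 2 slides that held both arms Cxcl9 differed by -0.59 and -0.38 and Gbp3 by 0.62 and 0.65.

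**Figure D3:**
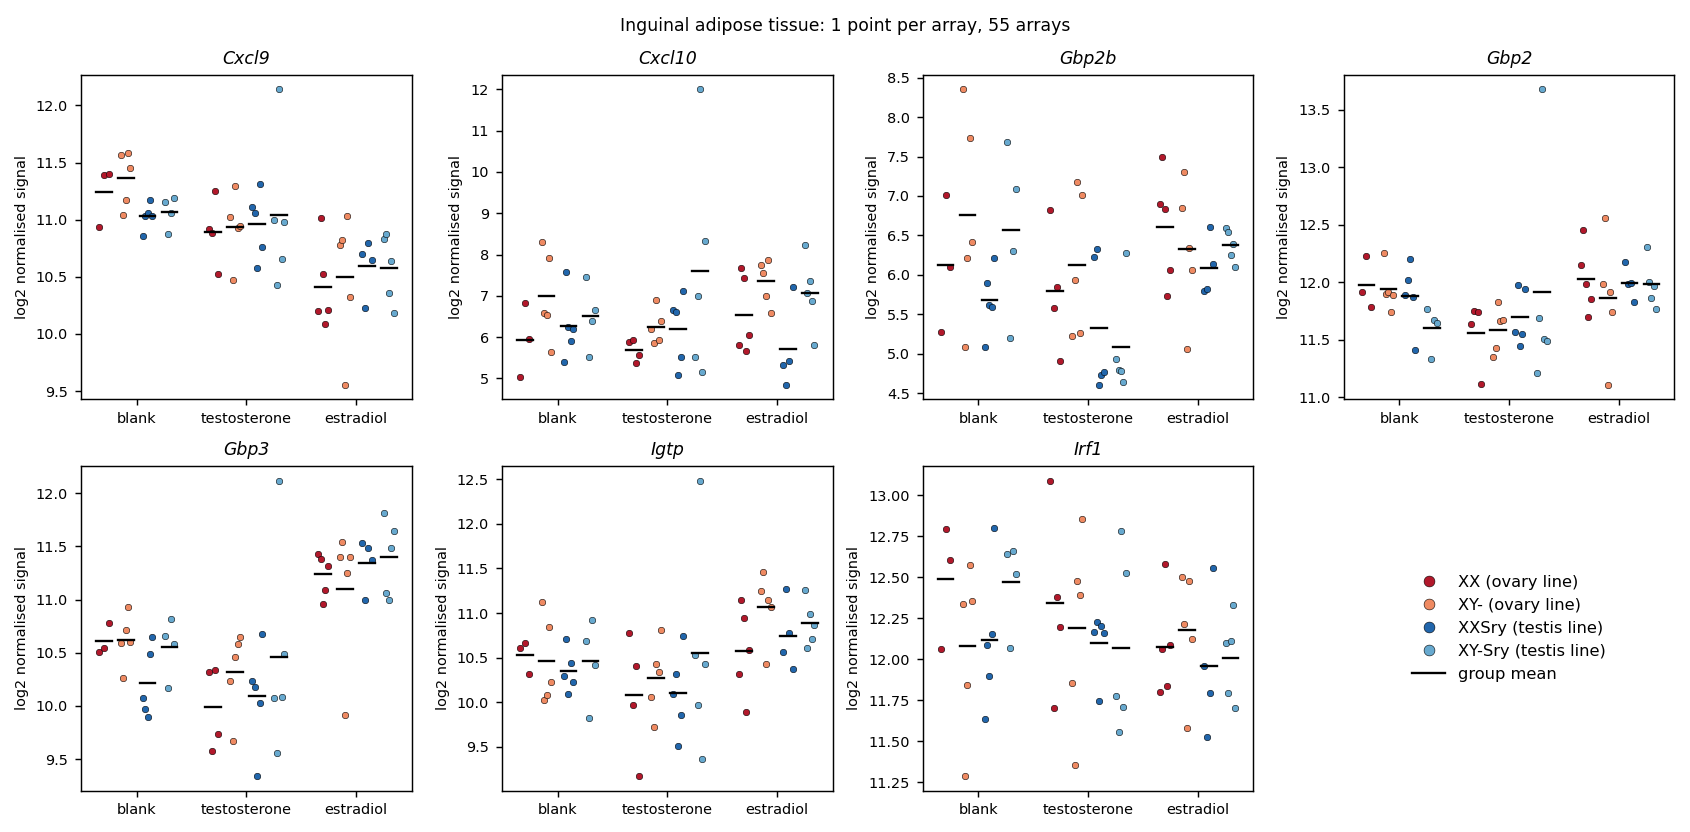
Log2 signal of the brightest tested probe of each of the 7 genes on 55 adipose arrays, by capsule; points are arrays coloured by genotype and bars are group means. The Gbp3 points with estradiol, all but 1 at 10.96 or more, lie above the blank points, which end at 10.93, the Cxcl9 points lie lower with estradiol, and 1 XY-Sry testosterone array stands above the rest for Cxcl10, Gbp2, Gbp3 and Igtp.

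Within the lines, the fall of Cxcl9 passed in the ovary line, by 0.85 ± 0.18 (adjusted p = 6.92e-04, 10.2% of all probes called), and the difference of -0.46 ± 0.17 in the testis line did not pass (adjusted p = 0.079). Gbp3 rose in the testis line by 0.99 ± 0.22 (adjusted p = 0.00152) and by 1.0 ± 0.21 (adjusted p = 7.1e-04, 10.1% of all called). There Gbp3 ran from 10.99 to 11.81 with estradiol and from 9.90 to 10.82 with blank capsules. In the ovary line it was 0.55 ± 0.22 higher (adjusted p = 0.116), with XY- estradiol replicate 3 at 9.91. Without that array 3 member probes were called in the ovary line, and 3 also without XY-Sry testosterone replicate 3, an array of neither arm, and 2 were called without XY- blank replicate 4. The difference of the estradiol effect between the lines was called for none of the 14 probes (limma), where 0.813% of all were. None was called for the sex chromosomes either, against 0.137% of all. Each of these comparisons held 1 probe at an unadjusted p under 0.05, and Cxcl10 was lowest there at -0.91 ± 0.30 (adjusted p = 0.256).

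Type I interferon genes were among the genes that rose with estradiol in adipose tissue: 21 of 24 tested did, where 10.4% of all tested probes rose, with a median of 1.04 against -0.02 over all tested probes. Oas1g rose by 2.19 (adjusted p = 1.88e-09), Oasl2 by 1.97 (adjusted p = 1.15e-08) and Usp18 by 1.45 (adjusted p = 2.99e-08), and these encode antiviral enzymes and an ISG15 protease. Of 18 other interferon-gamma targets 4 rose and 1 fell. Irgm2 rose by 0.63 and Iigp1 by 0.64, both of them GTPases related to Igtp, and Cd274 fell by 0.62. Ifngr1 at -0.003, Ifngr2 at -0.06 and Cxcr3 at 0.12 did not pass (adjusted p = 0.988, 0.858 and 0.83).

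All 6 macrophage markers rose as well, C1qa by 1.73, Adgre1 by 1.26 and Csf1r by 1.13, and their mean level was 8.11 (7.35 to 8.90) with blank capsules and 9.25 (8.45 to 9.93) with estradiol. Of 5 endothelium markers 4 fell, Cdh5 by 1.21, Tie1 by 0.68 and Egfl7 by 0.60 (adjusted p = 2.4e-09, 2.97e-05 and 2.78e-08). Of 7 mammary epithelium markers 3 rose, Krt19 by 1.40, Krt8 by 1.36 and Krt7 by 0.84, and of 6 adipocyte markers Lep fell by 0.47 and Plin1 by 0.40. The part of endothelium and adipocyte markers in the members' values was not tested. None of 9 T and NK cell markers passed the limma test, and 0 had an unadjusted p under 0.05. Their mean level ran from 5.97 to 10.61 among estradiol arrays and from 6.04 to 10.99 among blank arrays, a wide spread inside each arm. With both marker levels as covariates Cxcl9 fell by 0.91 (adjusted p = 3.38e-04) and the Irf1 probe by 0.60 (adjusted p = 0.00135). In that fit Gbp3 no longer differed with a call, at -0.001 (adjusted p = 0.997) and 0.16 (adjusted p = 0.698), and within the testis line its rises lost their calls too (adjusted p = 0.36 and 0.665). With B cell, mammary and muscle marker levels as covariates instead, all 4 probes called in the main fit were called.

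**Figure D4:**
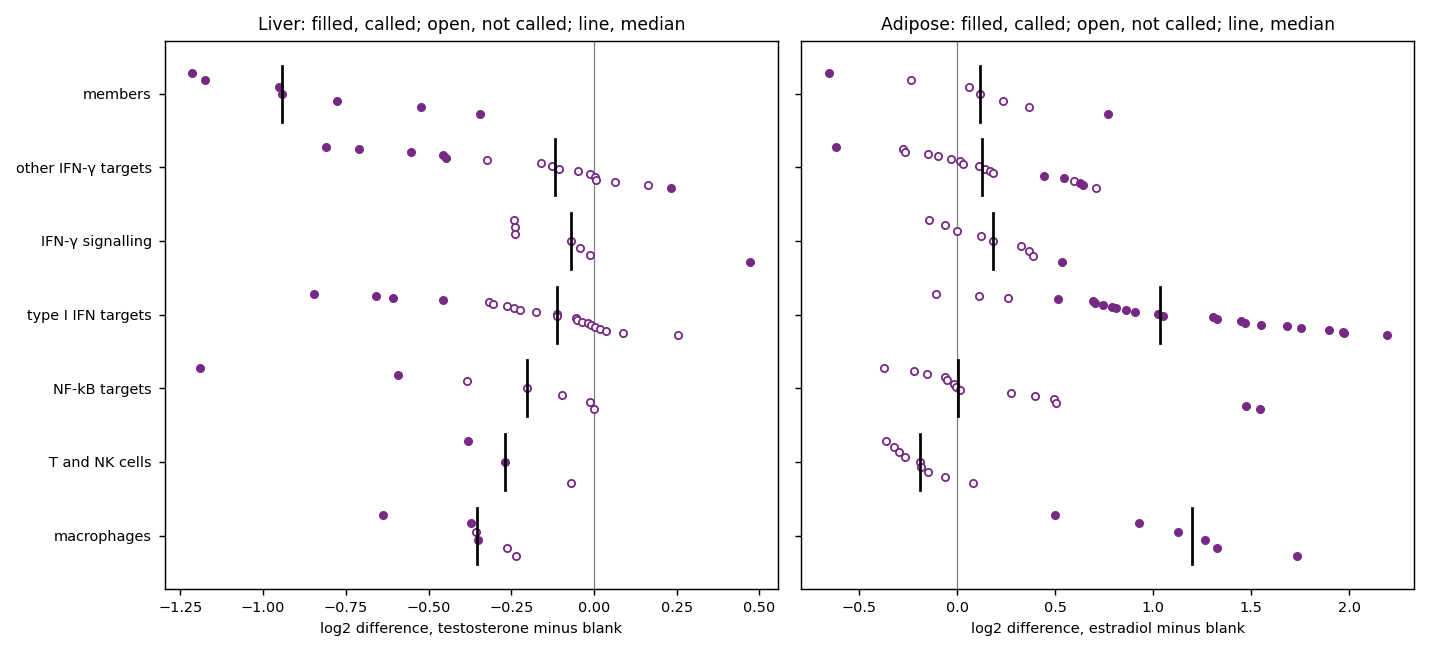
Log2 difference from blank capsules for each tested gene of 7 lists with testosterone in liver and with estradiol in adipose tissue; filled points are called, open points are not, and the line is the list's median. The members lie below 0 in liver with testosterone, and with estradiol in adipose tissue the type I interferon genes (median 1.04) and macrophage markers (median 1.20) lie above 0 while the members lie on both sides.

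The members varied together across arrays. Over the 21 pairs of 7 genes in 60 livers, Pearson's r ran from 0.42 (Cxcl10 with Irf1) to 0.91 (Cxcl9 with Gbp2b) with a median of 0.73, and Spearman's rho from 0.30 to 0.85. These values hold the group differences described above. After each array was centred on its group mean, r ran from 0.07 (Gbp2 with Irf1) to 0.66 (Cxcl9 with Gbp2b) with a median of 0.39, and rho from 0.01 to 0.61. Without the 2 livers farthest from the median, XY- estradiol replicates 5 and 4, it ran from -0.08 to 0.61 with a median of 0.30.

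In 55 adipose arrays centring had the opposite result. As they stood, r ran from 0.004 (Cxcl9 with Gbp3, the pair that estradiol moved apart) to 0.73 (Gbp3 with Igtp) with a median of 0.39. After centring it ran from 0.30 to 0.75 (Gbp2 with Igtp) with a median of 0.61, and Cxcl9 with Gbp3 was then at 0.71. Without XY-Sry testosterone replicate 3 and XY- estradiol replicate 3 the centred values ran from 0.14 to 0.62 with a median of 0.53. All these pairs share arrays, slides and the normalisation, and no p is given.

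**Figure D5:**
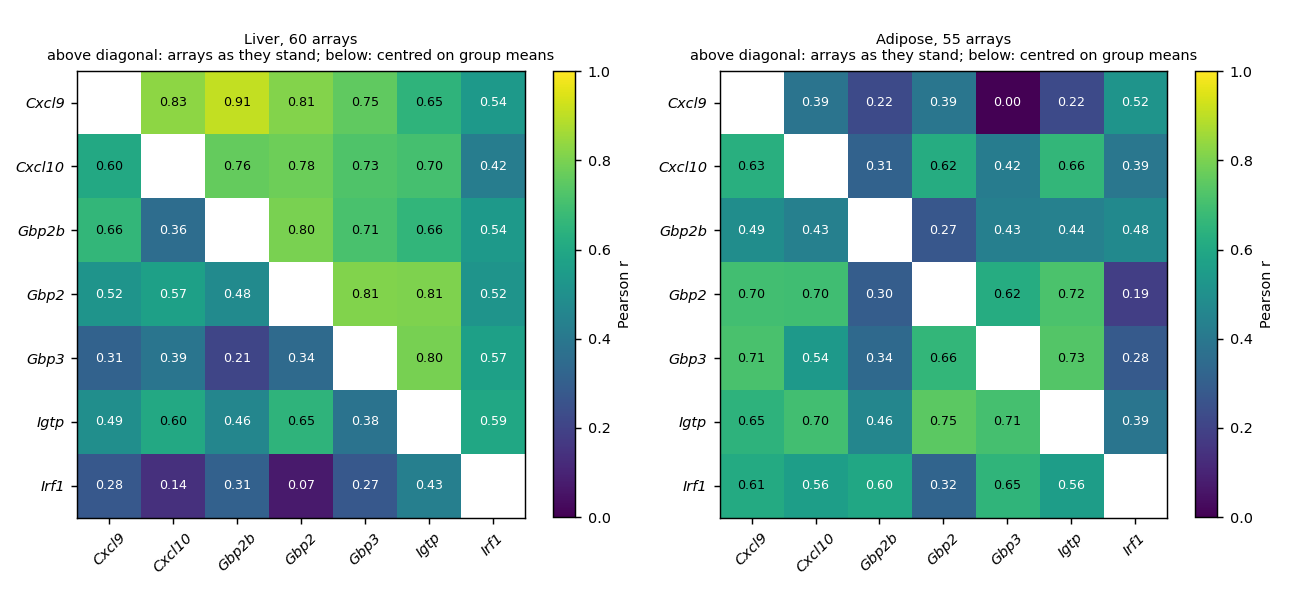
Pearson's r between the 7 genes over 60 liver and 55 adipose arrays, as the arrays stand above the diagonal and after centring on group means below it. In liver the values are higher above the diagonal (median 0.73 against 0.39) and in adipose tissue below it (median 0.61 against 0.39).

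The genes outside the set whose centred profile was most like the mean of the 7 members are named here by rank. In liver they were Cd274 (listed as Pdcd1lg1) at r = 0.77, Cd3g at 0.68, Ifit3 at 0.65, and the genes listed as EG243881 and AI481100 at 0.64 each, the latter being Irgm2. In adipose tissue they were Parp14 at 0.90, Casp4, Casp8 and Usp18 at 0.86, 0.85 and 0.85, and the gene listed as D14Ertd668e at 0.85. The median over all tested genes was 0 in liver and -0.01 in adipose tissue.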

How the data were processed

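RNA of liver (60 arrays) and inguinal adipose tissue (55 arrays) was read on 1-colour Illumina BeadChips. Per the file headers, the deposited intensity of each probe and array is an average signal, with a detection p-value beside it. The files are not normalised, and the submitters' processing notes name lumi. Scanner settings and background steps are not given in the sources used here. Another 115 deposited columns, of bead standard errors, were not used.

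With limma 3.58.1 in R 4.3.3, normexp correction used a negative control distribution estimated from the deposited detection p-values, with an offset of 16, followed by quantile normalisation and log2. Probes detected (p under 0.01) on at least 5 liver or 3 adipose arrays, the smallest group sizes, were tested: 11317 and 14636 of 25697. A model with 1 mean for each of 12 groups gave 13 comparisons per tissue (lmFit, eBayes), with Benjamini-Hochberg adjustment over all tested probes and a threshold of 0.05. Nothing in the labels says that arrays of a group come from separate litters, so p-values measure the spread between these samples. The fit was tested on simulated data with known changes of 1 log2 unit between testosterone and blank capsules. It recovered 100% of them in liver and 87% in adipose tissue, with 9 and 12 false calls. The simulated noise was normal and drawn separately for each probe and array, with no slide effect. The real arrays share slides and include outlying ones, so these rates need not hold for them. The number of arrays limits precision.

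Members, lists and comparisons were chosen with earlier results of these data known. All probes of the member symbols are described. Of each list at most 3 genes with the smallest adjusted p are named, plus receptors and Cxcr3 where tested, and the 5 genes most alike in each tissue. One further gene of this rule is not reported here. Doubts about arrays rest on Xist, Eif2s3y, Hsd3b5 and Greb1. Marker covariates are mean log2 levels of the tested genes of a list. Alternatives were other normalisation, background, offset, filter, slide block, array weights, covariates and single arrays left out. Gene places, names and promoter windows come from RefSeq tables of GRCm38.p6.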

Additional observations from a re-analysis of the deposited data

Results flagged for a closer look

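Single arrays stood apart from the other 4 of their group in 9 of 161 groups of gene and condition tested, where chance gives about 1 in 20, or 8.1. In liver Cxcl9 was 6.87 in XY-Sry testosterone replicate 4, with the others at 7.54 to 7.71. Gbp2b (listed as Gbp1) was 6.93 in XX testosterone replicate 4, with the others at 5.06 to 5.52, 4.84 in XXSry blank replicate 3 (5.30 to 5.37) and 7.72 in XY- blank replicate 1 (6.41 to 6.78). Igtp was 11.64 in XX blank replicate 1, with the others at 10.31 to 10.67.

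In adipose tissue Gbp2b was 6.27 in XY-Sry testosterone replicate 5, with the others at 4.64 to 4.93, and Gbp2 was 13.68 in XY-Sry testosterone replicate 3 (11.21 to 11.69). Gbp3 (listed as Gbp4) was 9.91 in XY- estradiol replicate 3, with the others at 11.25 to 11.54, and Irf1 was 11.74 in XXSry testosterone replicate 3 (12.16 to 12.23).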

How the results depend on the processing

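Of 9 alternatives for the fall of the members with testosterone in liver, 8 gave 9 to 11 called probes and the immune marker covariates gave 6. Within the ovary line those covariates gave 2 of 9, while calls over all probes went from 799 to 216. Within the testis line median centring gave 3 of 5, while calls over all probes went from 1034 to 410. The estradiol count in liver, 1, was 0 with median centring or covariates, 2 without background correction or with an offset of 50, 5 with slide as a block, 4 with array weights or without both doubted arrays, and 1 to 4 when single arrays were left out, changing in 14 of 60 fits. Within the testis line the same count, 1, was 0 with median centring, no filter or covariates, 2 without background correction, with an offset of 50, a stricter detection filter, the slide block or the doubted arrays left out, 3 with array weights, and 0 to 2 without single arrays. Slide as a block gave 1 in the ovary line. Over all liver probes the slide block called 1048 with estradiol, where the main fit called 772. Within the testis and ovary lines it called 381 and 686, against 201 and 280. Array weights called 955 with estradiol and 437 within the testis line. The median liver line difference of the members was -0.080 with covariates, -0.069 with blank capsules and -0.055 with estradiol, and -0.43 with blank capsules without background correction. The median centred correlation in liver was 0.57 with median centring.

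In adipose tissue the ovary-line estradiol count, 1, was 3 with array weights or immune covariates. It was 2 with B cell, mammary and muscle covariates and 1 to 3 without single arrays. Of all 14636 tested probes 1492 were called there, 2404 with array weights, 834 with immune covariates and 1548 with the other covariates. The testis-line count, 2, was 1 with median centring and 3 with immune covariates. It was 4 with array weights or the B cell, mammary and muscle covariates. Over all probes the calls there numbered 1484 in the main fit and 842, 589, 2966 and 1860 in these fits. Array weights gave 1 member call for sex chromosomes, where 1148 of all tested probes were called against 20 in the main fit. Immune covariates gave 1 for testosterone, where 969 were called against 695. Gbp3 (listed as Gbp4) was -0.001 with estradiol and immune covariates. The cause of these changes was not tested. Over all liver probes, calls between lines numbered 385, 232 with median centring and 2 with covariates; for testosterone 2162, 1370 and 1210, and for estradiol 772, 1392 and 45, where median centring moved the median of all probes to -0.18. Adipose estradiol calls numbered 3003, 1936 and 1072. No paired analysis was possible because replicate numbers follow accession order only. Signals near background limit Gbp2b in both tissues and Cxcl10 in adipose tissue.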
